A study of Mus musculus with 34 samples.

Results

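The comparison described here is the difference between the effect of losing PPARA in the whole body and the effect of losing it in the liver alone, in mice that received no drug. For each gene the difference between whole-body Ppara knockout (KO) and wild-type (WT) livers was taken, and the difference between liver Ppara knockout (LKO) livers and those of their own control line (LWT) was subtracted from it. This difference of differences, called the interaction below, is in log2 units and is positive where the KO minus WT difference lies above the LKO minus LWT difference. It uses 15 of the 34 mice analysed, all given the vehicle, namely 3 KO, 4 WT, 4 LKO and 4 LWT mice, and it covers all 15567 genes detected. All 4 genotypes are labelled C57Bl/6J, and every mouse was a male of 14 weeks on a chow diet, gavaged once a day for 10 days with 3% gum arabic in water and killed at zeitgeber time 14, early in the dark phase. The other 19 mice had the same genotypes and received fenofibrate, a fibrate that activates PPARA, at 100 mg per kg per day. The Cre driver of the liver knockout, the part of Ppara deleted in each line and the breeding of the control lines are not given in the sources used here.

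PPARA is a nuclear receptor that binds fatty acids and fibrates and acts on its target genes as a heterodimer with a retinoid X receptor. In hepatocytes it is best known for switching on the enzymes of mitochondrial and peroxisomal fatty acid oxidation, omega-hydroxylation and ketone body synthesis, together with the hormone gene Fgf21. It is also made in other organs, among them heart, kidney, muscle and intestine, and it is known to restrain inflammatory gene expression. A whole-body knockout lacks it in all of these, and a liver knockout keeps it outside the liver.

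Each mouse was measured on 1 single-colour Agilent array, and levels below are log2 processed intensities minus the 75th percentile of the array, so that levels of different genes cannot be compared. Between 29181 and 33954 probes were well above background on the vehicle arrays, and mice of 1 group correlated with each other at 0.979 or more across probes. The 15 hepatocyte markers had mean levels of 9.10 to 9.29 in KO livers, 9.03 to 9.17 in WT livers, 9.08 to 9.28 in LKO livers and 9.07 to 9.37 in LWT livers, and none of them had a called interaction. The arrays lay on 5 slides, none of which held all 4 vehicle groups, so the interaction could not be computed within a slide. On slide 1, the only one with both KO and WT vehicle mice (1 of each), 96.8% of the called KO minus WT differences kept their sign. On slides 2, 3 and 4, 99.6% or more of the called LKO minus LWT differences did. The calls used these same arrays, so this agreement is in part fixed in advance and does not test for slide effects. KO replicate 1 lay on slide 1, with WT replicate 1 as the only other vehicle array, and KO replicate 2 was the only vehicle array on slide 5. A gene is said to be called where its adjusted p fell below 0.05 in limma's two-sided moderated test, with Benjamini-Hochberg adjustment across the 15567 genes, and errors of differences are standard errors (SE) over these mice.

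Ppara itself was lower in both knockouts, and the fall was the larger one in the whole-body knockout. The level of its brightest probe (chr15:85632110-85632169, mm9, plus strand) was 5.50, 5.49 and 5.03 in KO livers, against 6.86, 6.87, 7.06 and 7.28 in WT livers, and 6.00, 6.21, 6.11 and 6.12 in LKO livers, against 6.70, 7.06, 7.25 and 7.09 in LWT livers. The 3 KO mice lay below all LKO mice, and the 4 LKO mice lay below all WT and LWT mice, with no overlap between these sets. KO minus WT was -1.68 and LKO minus LWT was -0.91, which gave an interaction of -0.76 ± 0.23 (95% interval -1.23 to -0.30; adjusted p = 0.0336). The 2 other Ppara probes, at chr15:85637193-85637252 and chr15:85632534-85632593, gave interactions of -1.07 and -0.73. The call was lost without any 1 of 7 of the 15 mice, with an interaction of -0.61 (adjusted p = 0.127) without KO replicate 3. It was also lost with the authors' deposited log2 values (-0.68, adjusted p = 0.0642), with slide as a fixed term (-0.65, adjusted p = 0.0644), with replicate number as a block (-0.73, adjusted p = 0.0514) and with no filter on dim probes (adjusted p = 0.0569). Whether these probes lie inside the deleted part is not known, so the signal left in each knockout does not measure the receptor that remains, and in RNA from whole liver fewer cells of a type and less RNA per cell cannot be told apart.

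Over all genes, 1325 had a called interaction (8.51% of 15567), 626 of them positive (4.02%) and 699 negative (4.49%). Of these, 582 were at least 2-fold (3.74%) and 174 at least 4-fold (1.12%). Most were genes that differed in the whole-body knockout and showed no call in the liver knockout. For 1123 of the 1325 genes (84.8%) KO minus WT was called and LKO minus LWT was not, with 525 of them positive and 598 negative. Both differences were called in the same direction for 54 genes, 38 of which had the larger difference in the whole-body knockout, and in opposite directions for 33. Only LKO minus LWT was called for 71 genes, and neither difference on its own for 44. The parts share their arrays with the interaction, so their counts are set beside it as a description. KO minus WT was called for 4710 genes (30.3%; 14.1% positive and 16.2% negative), LKO minus LWT for 969 (6.22%; 1.88% positive and 4.34% negative), KO minus LKO for 2074 (13.3%) and WT minus LWT for 144 (0.925%). Of the 969, 293 were positive (30.2%), and with the authors' deposited log2 values 42.4% of 1015 were. With slide as a fixed term the interaction was called for 1605 genes, and with slide as a random block for 1561. Without KO replicate 1 it was called for 2015 genes, and 116 were then of the kind called in the liver knockout alone; without KO replicate 3 it was called for 1001. The WT minus LWT count also depended on single mice, from 60 without LWT replicate 3 through 77 without WT replicate 2 and 81 without WT replicate 1 to 225 without WT replicate 4.

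**Figure D1:**
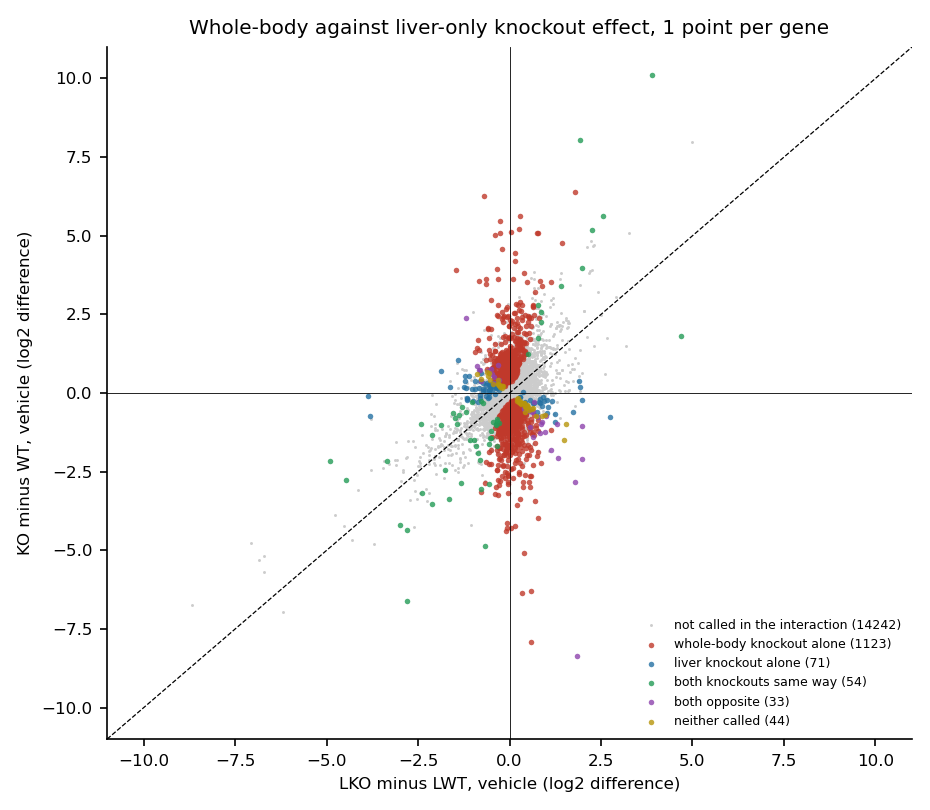
Each point is 1 gene, with LKO minus LWT on the horizontal axis and KO minus WT on the vertical axis (log2 differences of group means in vehicle mice); the dashed line marks equal differences and colours mark which differences were called. The 1123 genes called in the whole-body knockout alone run along the vertical axis, while the 71 called in the liver knockout alone lie along the horizontal one.

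The positions of single mice say which group stood apart. A group of 3 mice falls outside the rest by chance more often than a group of 4. The counts for KO mice are therefore not directly comparable with those of the other groups. In 336 of the 626 positive calls all 3 KO mice lay above the 12 other vehicle mice, and in 414 of the 699 negative calls they lay below them. Over the 15522 genes with no missing value the KO mice lay above all others in 717 (4.62%) and below in 780 (5.03%). The WT mice were the group that stood apart in fewer calls. They lay above the 11 others in 89 negative calls and below them in 58 positive ones, against 182 (1.17%) and 121 (0.78%) over all genes. The LKO mice lay above all others in 23 negative calls and below in 34 positive ones, with 79 (0.509%) and 73 (0.47%) over all genes. The LWT mice lay above all others in 19 positive calls, with 98 (0.631%) over all genes.

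Genes lower in both knockouts had a called interaction about as often as genes at large. Lower levels in both knockouts were called for 463 genes, with a median KO minus WT of -0.86 and a median LKO minus LWT of -0.85. Their median interaction was 0.02, with quartiles of -0.18 and 0.23, and for 425 of them (91.8%) the interaction was under 2-fold in size. It was called for 42 of the 463 (9.07%, beside 8.51% of all genes), 15 positive and 27 negative. On leaving out a mouse the set itself was chosen anew. The count was then 64 of 494 without KO replicate 1 and 20 of 393 without LWT replicate 3. It was 25 of 428 without LKO replicate 3 and 25 of 401 without LKO replicate 4. Higher levels in both knockouts were called for 139 genes, 12 of which had a called interaction (8.63%). Both sets were chosen on differences that use the same arrays, which bears on the size of their interactions, so these values are a description.

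Many of the enzymes that PPARA is known for were lower in both knockouts, and the share with a called interaction differed between lists. Of 27 genes of mitochondrial fatty acid oxidation, 21 were lower in KO than in WT livers and 22 were lower in LKO than in LWT livers, while the interaction was called for 0, beside 8.51% of all genes, and had a median of 0.11, beside -0.0028 over all genes. That count of 0 became 3 positive calls without KO replicate 3 or WT replicate 4. Of 32 genes of peroxisomal fatty acid oxidation, 21 were lower in KO and 19 lower in LKO livers, and the interaction was called positive for 4 and negative for 2, a larger share than the 8.51% of all genes (median 0.11). The 15 genes of omega-oxidation had 1 positive and 1 negative call (13.3%; 9 lower in KO and 7 in LKO livers; median -0.03), and the 7 of ketone body synthesis and export had 0 (5 and 4 lower; median 0.02). Of 26 further PPARA targets 16 were lower in KO and 15 in LKO livers, and Ccn2, a matricellular growth regulator, was the only one with a called interaction (median 0.15).

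Ehhadh, the bifunctional enzyme of peroxisomal oxidation, had levels of 4.27, 4.19 and 4.14 in KO livers, against 4.58, 5.58, 6.14 and 7.08 in WT livers, and 4.47, 4.01, 4.48 and 3.99 in LKO livers, against 6.37, 5.82, 6.71 and 7.15 in LWT livers. Both knockouts lay below both control groups. The interaction of 0.62 (95% interval -0.29 to 1.54; adjusted p = 0.44) was not called. Cyp4a14, a fatty acid omega-hydroxylase, had -4.11, 1.41 and 1.39 in KO livers, against 2.58, 6.72, 7.60 and 8.28 in WT livers, and -1.89, -0.47, -0.49 and 0.76 in LKO livers, against 7.33, 7.82, 8.31 and 9.20 in LWT livers. WT replicate 1 lay far below the other WT mice and KO replicate 1 far below the other KO mice. The interaction of 1.96 had an interval of -1.11 to 5.03 (adjusted p = 0.479). Cyp4a10, of the same family, read -0.47, 3.13 and 3.88 in KO livers, against 5.65, 7.69, 8.02 and 8.64 in WT livers, and 1.87, 1.90, 2.17 and 2.77 in LKO livers, against 8.53, 9.07, 9.02 and 9.46 in LWT livers. Its interaction of 1.52 (95% interval -0.49 to 3.52; adjusted p = 0.382) was called without KO replicate 1 (2.84, adjusted p = 0.0213). Fgf21, the fasting hormone, had levels of -6.30, -3.64 and -6.34 in KO livers, against -2.70, -0.47, -0.13 and 0.61 in WT livers, and -6.29, -3.14, -6.75 and -6.30 in LKO livers, against 0.81, 1.20, 1.88 and 1.88 in LWT livers. It was lower in both knockouts, and it was above background in 1 KO mouse, 1 LKO mouse and all control mice, so that the fitted sizes rest in part on signals not above background. Its fitted interaction of 2.30 (95% interval 0.16 to 4.45; adjusted p = 0.185) was not called. It was called with normexp background correction (1.67, adjusted p = 0.0232), with the authors' deposited values (2.12, adjusted p = 0.0213) and without LKO replicate 2 (3.13, adjusted p = 0.0377). Vnn1, the pantetheinase vanin, fell in both knockouts and was above background in 1 of 3 KO and 3 of 4 LKO mice, with a fitted interaction of -0.77 (95% interval -1.97 to 0.43; adjusted p = 0.472).

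The liver fatty acid binding protein Fabp1 (-0.04, 95% interval -0.43 to 0.36) and the acyl-CoA thioesterase Acot1 (-0.05, -1.61 to 1.51) were close to 0 with intervals of different width. The fatty acid translocase Cd36 (-0.10, -0.65 to 0.45), the carnitine palmitoyltransferase Cpt1a (0.22, -0.03 to 0.46), the droplet coat protein Plin2 (0.77, -0.02 to 1.57), the pyruvate dehydrogenase kinase Pdk4 (1.19, -0.32 to 2.70) and the bile acid enzyme Cyp7a1 (-0.61, -2.98 to 1.76) were not called either. Their adjusted p-values were 0.875, 0.292, 0.239, 0.357 and 0.816, and those of Fabp1 and Acot1 were 0.939 and 0.977.

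The oxidation genes that did differ went several ways. Acox2, the oxidase of branched-chain acids and bile acid intermediates, was higher in KO livers alone, at 7.30, 7.10 and 7.32 in KO livers, against 6.17, 5.92, 6.30 and 6.30 in WT livers, and 6.34, 6.31, 6.38 and 6.43 in LKO livers, against 6.29, 6.68, 6.78 and 6.71 in LWT livers. All KO mice lay above all other mice. The interaction was 1.32 ± 0.19 (adjusted p = 1.39e-05). Acot6, a peroxisomal acyl-CoA thioesterase, was also highest in the KO mice, while its LKO mice lay above all LWT mice, with -0.67 to 0.20 in KO livers, -3.04 to -2.40 in WT livers, -1.87 to -1.28 in LKO livers and -2.65 to -2.13 in LWT livers and an interaction of 1.80 ± 0.38 (adjusted p = 0.00258). Abcd2, a transporter of very long-chain acyl-CoA, was above background in the 4 WT mice and in no mouse of the 3 other groups, and it was at least 2.2-fold lower in KO than in WT livers. Its interaction (adjusted p = 0.0459) has no measured size and lost its call without any 1 of 12 of the mice, with normexp correction (adjusted p = 0.359), with quantile normalization (adjusted p = 0.0864) and with no filter (adjusted p = 0.0741). The peroxisomal count was 2 positive without any 1 of 7 mice. Cyp4f15 (0.40, adjusted p = 0.0362) and Cyp4f14 (-0.69, adjusted p = 0.0137), fatty acid hydroxylases, were the omega-oxidation calls. Cyp4f15 lost its call without any 1 of 8 mice, with normexp correction, with no filter and with the 15 vehicle arrays alone (adjusted p = 0.12, 0.0649 and 0.15), and Cyp4f14 without KO replicate 3, and the positive omega-oxidation count ran from 0 to 4 (without KO replicate 1). Ccn2 had 1.61 ± 0.47 (adjusted p = 0.0292), which was lost without any 1 of 7 mice.

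**Figure D2:**
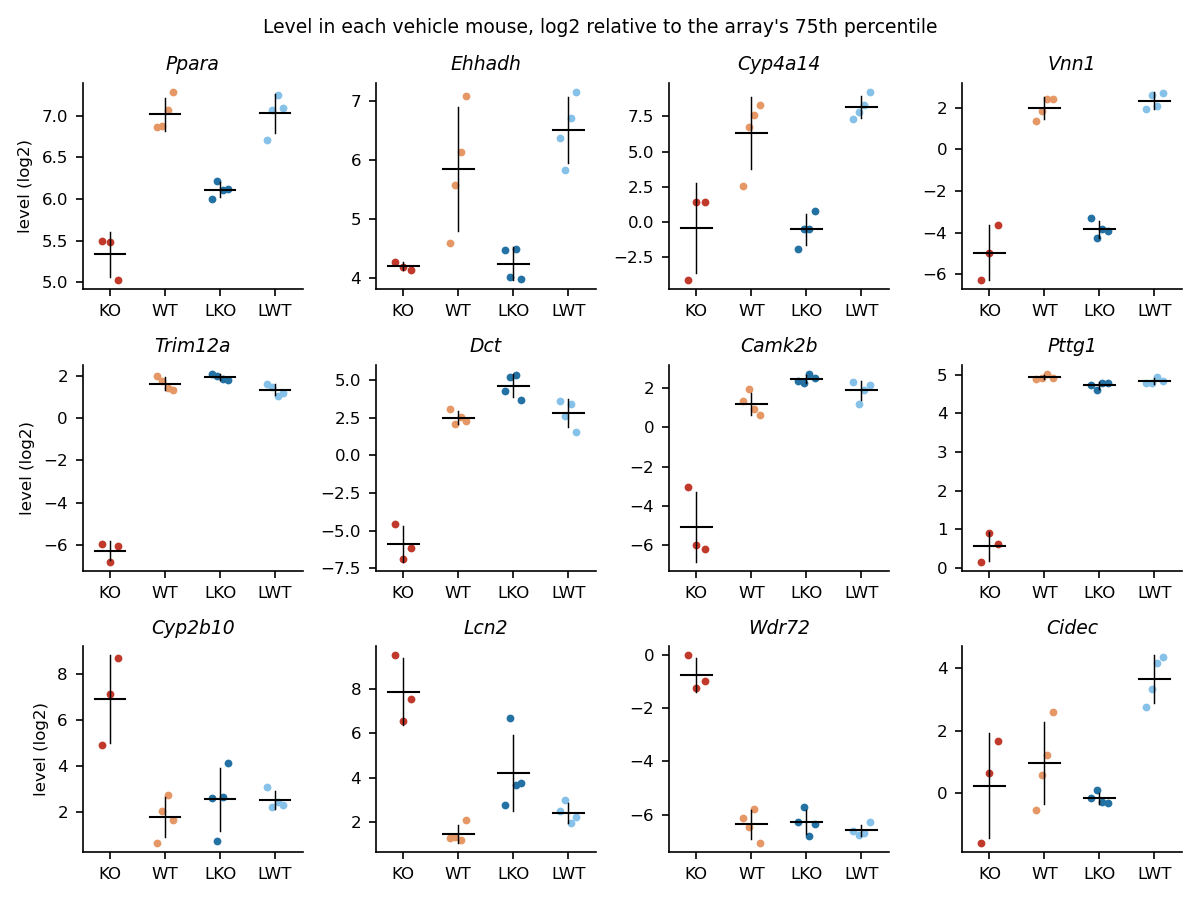
Levels of 12 genes in each of the 15 vehicle mice (log2, relative to the array's 75th percentile), with a bar at the group mean and a line for 1 SD; each gene has its own axis, which does not start at 0. The first row holds Ppara and 3 of its targets, low in both knockouts, and the second row 4 genes that are low in the KO mice alone; Cyp2b10 and Wdr72 are high in the KO mice alone, and Cidec is high in the LWT mice.

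The PPARA partners and coactivators held a pair of further calls among 18 genes tested (1 positive and 2 negative with Ppara, 16.7%, beside 8.51% of all genes; median 0.04). Med1, the Mediator subunit that contacts nuclear receptors, had levels of 4.91, 4.81 and 5.02 in KO livers, against 6.32, 6.47, 6.25 and 6.31 in WT livers, and 6.99, 6.90, 6.56 and 6.78 in LKO livers, against 6.44, 6.92, 6.65 and 6.29 in LWT livers. The KO mice lay below all others. The interaction was -1.66 ± 0.20 (adjusted p = 1.29e-06) by the brightest probe (chr11:98014129-98014188), while the mean of its detected probes gave -0.02 (adjusted p = 0.961). Crebbp, an acetyltransferase that nuclear receptors recruit, had an interaction of 1.27 ± 0.26 (adjusted p = 0.00152).

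The largest negative interactions belonged to genes that were low or not above background in the KO mice alone. Trim12a, a member of the TRIM family (chr7:111448499-111448558), had levels of -5.96, -6.79 and -6.06 in KO livers, against 2.00, 1.77, 1.45 and 1.33 in WT livers, and 2.10, 2.01, 1.84 and 1.82 in LKO livers, against 1.64, 1.48, 1.06 and 1.21 in LWT livers. It was above background in no KO mouse and in all 12 others, and it was at least 63.6-fold lower in KO than in WT livers (fitted interaction -8.50 ± 0.30, adjusted p = 2.52e-18, which has no measured size). Dct, the dopachrome tautomerase of melanin synthesis (chr14:118412029-118412088), had -4.56, -6.86 and -6.18 in KO livers, against 3.05, 2.10, 2.55 and 2.27 in WT livers, and 4.30, 5.22, 5.30 and 3.66 in LKO livers, against 3.63, 2.58, 3.37 and 1.57 in LWT livers. It too was above background in no KO mouse and in all others, at least 115-fold lower in KO than in WT livers, while it was higher in LKO than in LWT livers (LKO minus LWT 1.83, adjusted p = 0.0472). Camk2b, the beta subunit of calmodulin-dependent kinase II (chr11:5869675-5869734), read -3.05, -5.97 and -6.21 in KO livers, against 1.34, 1.94, 0.93 and 0.65 in WT livers, and 2.36, 2.25, 2.73 and 2.50 in LKO livers, against 2.29, 1.20, 1.89 and 2.15 in LWT livers, with no overlap between the KO mice, 1 of which was above background, and the rest (fitted interaction -6.87 ± 0.67, adjusted p = 2.4e-08). Pttg1, the securin of mitosis (chr11:43233801-43233860), had 0.17, 0.90 and 0.61 in KO livers, against 4.89, 4.90, 5.02 and 4.92 in WT livers, and 4.72, 4.59, 4.79 and 4.79 in LKO livers, against 4.77, 4.79, 4.93 and 4.82 in LWT livers. The 12 other mice lay within a narrow band and the KO mice far below it. The interaction was -4.27 ± 0.20 (adjusted p = 2.01e-15). Serpina12, the adipokine vaspin, and Prim2, the large primase subunit, were also not above background in any KO mouse and above it in all others, at least 3.77-fold and 8.27-fold lower in KO than in WT livers.

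Another 6 genes of this kind were among the 12 largest negative interactions. Tmem25 (-4.36), the long non-coding RNA Gas5 (-4.34), the mitochondrial CoA-transferase Sugct (-4.19), Trim34a (-4.14) of the TRIM family, Nat8f7 (-4.61) and the olfactory receptor gene Olfr1535 (-5.47) had KO levels below every other mouse. Sugct was also lower in LKO than in LWT livers (KO minus WT -4.86, LKO minus LWT -0.67). Nat8f7 was the one of them that was higher in LKO than in LWT livers (1.79, adjusted p = 0.00475), so that its interaction joined opposite differences.

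Most of the largest positive interactions belonged to genes high in the KO mice alone. Cyp2b10 (chr7:26711522-26711581), a drug-metabolising cytochrome P450 known as a target of the nuclear receptor CAR, had levels of 4.93, 7.12 and 8.71 in KO livers, against 0.66, 2.07, 2.77 and 1.64 in WT livers, and 2.62, 0.77, 2.66 and 4.16 in LKO livers, against 3.08, 2.22, 2.46 and 2.33 in LWT livers. KO replicate 1 was the lowest of the KO mice and lay above LKO replicate 4, the highest of the other mice. The interaction was 5.10 ± 1.21 (adjusted p = 0.00685). Its neighbour in function and position Cyp2b9 (chr7:26983484-26983543), a steroid hydroxylase more abundant in female than in male mouse liver, had a fitted interaction of 5.75 ± 1.36 (adjusted p = 0.00635). Cyp2b9 levels were -0.96, 1.53 and 3.54 in KO livers and -6.12 to -1.88 in the other 12. The value of -6.12 lay below the lowest detected signal of every vehicle array, so the fitted size rests in part on signal not above background. Wdr72, a WD-repeat protein known from enamel formation (chr9:74130576-74130635), had -0.02, -1.24 and -0.99 in KO livers and was above background in no other vehicle mouse, at least 12.4-fold higher in KO than in WT livers. Tmc5, of the transmembrane channel-like family, was above background in the 3 KO mice, in 1 LKO mouse and in no control mouse, at least 70.3-fold higher in KO than in WT livers. Cd209g, a C-type lectin gene, was above background in the KO mice and in no other, at least 13.6-fold higher in KO than in WT livers. Prelid2 (4.77 ± 0.42), Igsf23 (4.34 ± 0.43) and Rad51b (5.36 ± 0.78), a gene of DNA repair, also had all KO mice above all others. Serpina3i (5.41 ± 1.11), a serine protease inhibitor gene, had KO levels of 2.29 to 3.46, while LKO replicate 3 and LWT replicates 3 and 4 lay between 0.66 and 0.82 and the other mice at -1.29 or lower.

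Over all named genes, 11 called genes were above background in no KO mouse and in all 12 other vehicle mice, and 10 were above background in all KO mice and in none of the others. Besides those above, the first set held Srd5a2, Tagln3, Lhx3, Zfp296 and Ccdc171, and the second held Il1r2, the decoy receptor for interleukin-1, and Vdr, the vitamin D receptor, and these 7 were named after their values were seen. On the fenofibrate arrays 4 genes of the first set and 4 of the second kept the whole pattern. Trim12a, Dct, Tagln3, Wdr72 and Cd209g were among them. Serpina12, Prim2, Srd5a2, Lhx3, Zfp296, Ccdc171, Il1r2 and Vdr did not keep it on every array. Il1r2 was at least 4.93-fold and Vdr at least 1.83-fold higher in KO than in WT livers. Sizes on dim probes depend on the background method. With normexp correction the interaction of Trim12a was -4.15, of Wdr72 1.77 and of Il1r2 0.93, all still called, while that of Vdr was 0.45 (adjusted p = 0.281). The count of genes at 4-fold or more was 73 with that correction and 78 with the authors' deposited values, against 174.

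**Figure D3:**
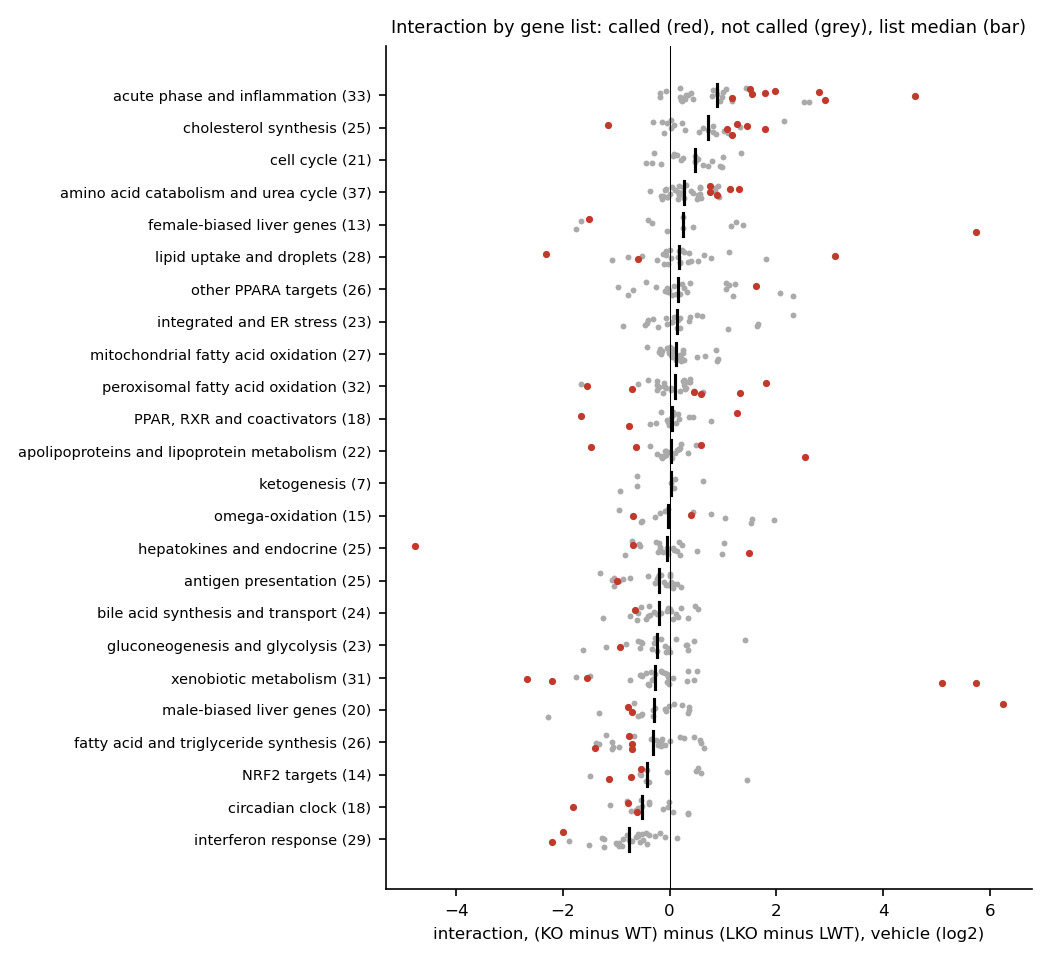
Interaction of every tested member of 24 gene lists in vehicle mice (log2, horizontal axis), with called genes in red, other genes in grey, a bar at the list median and the number tested in brackets. Acute phase genes lie mostly to the right of 0, with 8 called, and interferon genes to the left of 0, with 2 called.

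Most acute phase and inflammation genes were higher in the whole-body knockout. Of 33 genes tested 22 were higher in KO than in WT livers and 1 was higher in LKO than in LWT livers, and the interaction was called positive for 8 and negative for 0. That is 24.2% of the list, beside 8.51% of all genes, and the list's median interaction was 0.88, beside -0.0028 over all genes. The mean level over the list was 6.79, 6.02 and 6.18 in KO livers, 4.70 to 5.00 in WT livers, 5.18, 6.00, 5.43 and 5.38 in LKO livers and 4.84 to 5.21 in LWT livers, so that the KO mice lay above all others, with LKO replicate 2 just below them, while WT overlapped LWT and LKO overlapped LWT. Lcn2, the iron-trapping lipocalin, had levels of 9.49, 6.55 and 7.52 in KO livers, against 1.28, 1.32, 1.18 and 2.07 in WT livers, and 2.74, 6.69, 3.67 and 3.74 in LKO livers, against 2.49, 3.00, 1.95 and 2.24 in LWT livers. LKO replicate 2 lay within the KO range and the other LKO mice below it. The interaction was 4.60 ± 1.21 (adjusted p = 0.0142). Orm3, an orosomucoid, was higher in both knockouts (KO minus WT 5.17, LKO minus LWT 2.26), with an interaction of 2.91 ± 0.80 (adjusted p = 0.0202). Il1b, the inflammatory cytokine, had -0.62, 0.73 and -1.13 in KO livers and -4.05 to -1.84 in the other 12 (interaction 2.79 ± 0.71, adjusted p = 0.012). Without KO replicate 1 the count was 4 and Orm3 was not called (2.35, adjusted p = 0.0578); without WT replicate 2 it was 5, and without KO replicate 2 Il1b was not called (2.26, adjusted p = 0.0511), nor with the 15 vehicle arrays alone (adjusted p = 0.0531). Of 14 Kupffer cell and macrophage markers 7 were higher in KO than in WT livers and none had a called interaction. KO replicate 2 had the highest mean of these markers and the lowest acute phase mean among the KO mice. Their mean level was 2.79, 3.85 and 2.32 in KO livers, 1.97 to 2.46 in WT livers, 2.18 to 2.47 in LKO livers and 1.49 to 2.36 in LWT livers. The part of these cells in the acute phase values was not tested.

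Cholesterol synthesis genes had a median of 0.72 over 25 genes, with 5 positive calls and 1 negative, a larger share than the 8.51% of all genes. In KO livers 14 of them were higher than in WT livers, and in LKO livers 0 were higher than in LWT livers. The mean level over the list was 4.41, 3.84 and 3.72 in KO livers, 3.08 to 3.59 in WT livers, 3.37 to 3.82 in LKO livers and 3.52 to 3.70 in LWT livers, with KO replicate 1 highest and KO replicate 3 within the LKO range. Sqle, the squalene epoxidase, had 5.88, 5.19 and 5.06 in KO livers, against 3.88, 3.08, 2.55 and 2.50 in WT livers, and 4.99, 4.72, 4.69 and 4.32 in LKO livers, against 4.53, 4.15, 3.73 and 3.98 in LWT livers. The KO mice lay above all others and the WT mice below the LKO mice, with WT replicate 1 within the LWT range. The interaction was 1.79 ± 0.43 (adjusted p = 0.00794). Dhcr7, which makes cholesterol in the last step of one branch, had 3.51, 2.42 and 2.78 in KO livers, 1.88, 1.80, 1.53 and 1.78 in WT livers and 1.85 to 2.41 in the 8 mice of the liver line (1.26 ± 0.27, adjusted p = 0.00254). Srebf2, the transcription factor of this pathway, was called as well (1.17 ± 0.26, adjusted p = 0.00414). In LKO livers it had 0.18 in replicate 1 and 0.45 to 0.49 in the others. In LWT livers it had 0.27 in replicate 1 and 1.01 to 1.06 in the others. The LKO mice thus lay below all LWT mice but LWT replicate 1, and this difference enters the Srebf2 interaction. Hsd17b7, the sterol ketoreductase, reached its interaction by another route than Sqle and Dhcr7. Its levels were 2.61, 2.12 and 2.39 in KO livers, against 2.15, 1.98, 2.25 and 2.31 in WT livers, and 2.07, 1.72, 1.53 and 1.22 in LKO livers, against 2.94, 2.72, 2.97 and 2.91 in LWT livers. KO and WT mice overlapped, LWT mice lay above and most LKO mice below them, so that the interaction of 1.45 ± 0.31 (adjusted p = 0.00263) came with an LKO minus LWT of -1.25.

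Genes of fatty acid and triglyceride synthesis had 4 negative and 0 positive calls among 26 (15.4%, beside 8.51% of all genes; median -0.31; 15 lower in KO and 5 lower in LKO livers). Dgat2, the last enzyme of triglyceride synthesis, had 8.20, 8.19 and 7.83 in KO livers, against 8.83, 8.65, 8.59 and 8.55 in WT livers, and 8.73, 8.73, 8.74 and 8.66 in LKO livers, against 8.52, 8.60, 8.60 and 8.42 in LWT livers. The KO mice lay below all others. The interaction was -0.76 ± 0.18 (adjusted p = 0.00643). Elovl2, an elongase of polyunsaturated fatty acids (-0.70, adjusted p = 0.0256), and Acaca, acetyl-CoA carboxylase 1 (-1.39, adjusted p = 0.0292), were also called. Scd1, the stearoyl-CoA desaturase, spread widely in KO livers at 8.81, 7.55 and 6.03, against 8.68, 8.73, 8.77 and 8.63 in WT livers, and was not called (-1.07, adjusted p = 0.148), but it was called without KO replicate 1 (-1.75, adjusted p = 0.00125). The count of 4 was 2 without KO replicate 3 or LWT replicate 2. Acaca and Elovl2 lost their calls without KO replicate 3 (adjusted p = 0.129 and 0.0584), and in all without any 1 of 7 and of 4 mice. Acaca also lost it with the 15 vehicle arrays alone (adjusted p = 0.0991) and Elovl2 with the deposited values (adjusted p = 0.0555).

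Lipid uptake and droplet genes had 1 positive and 2 negative calls among 28 (10.7%, beside 8.51% of all genes; median 0.17). The positive one was Cidec, which joins lipid droplets, with -1.59, 0.64 and 1.68 in KO livers, against -0.52, 0.60, 1.22 and 2.60 in WT livers, and -0.15, 0.09, -0.29 and -0.30 in LKO livers, against 2.75, 3.32, 4.18 and 4.37 in LWT livers. The LWT mice lay above all other mice, the KO and WT mice overlapped. The interaction of 3.09 ± 0.90 (adjusted p = 0.0292) came with an LKO minus LWT of -3.82 and a KO minus WT of -0.73. Its call was lost without any 1 of 6 mice, with 2.37 (adjusted p = 0.123) without KO replicate 3 and an adjusted p of 0.095 with the 15 vehicle arrays alone. Pnpla3, a lipid droplet hydrolase, had -4.08 to -3.88 in KO livers, -3.76 to -1.71 in WT livers, -4.55 to -2.81 in LKO livers and -5.28 to -4.18 in LWT livers, and it was above background in 1 KO, 4 WT, 3 LKO and 0 LWT mice, so that its negative interaction (adjusted p = 0.00994) has no measured size. With normexp correction it was -0.61 and not called (adjusted p = 0.0958), nor was it called with the 15 vehicle arrays alone (adjusted p = 0.0567). Hepatic lipase Lipc had an interaction of -0.59 (adjusted p = 0.0428), lost without any 1 of 11 mice, with no filter (adjusted p = 0.0719) and with the 15 vehicle arrays alone (adjusted p = 0.0631). Among 22 apolipoprotein and lipoprotein genes Apoa4 had 7.13 to 7.84 in KO livers, 3.80 to 4.36 in WT livers, 5.71 to 6.84 in LKO livers and 4.77 to 6.28 in LWT livers. The KO mice lay above all others. The interaction was 2.53 ± 0.76 (adjusted p = 0.0348), lost without any 1 of 6 mice, with the deposited values, with no filter and with slide as a fixed term (adjusted p = 0.0642, 0.0574 and 0.0623). The list had 2 positive and 2 negative calls (18.2%; median 0.02), Scarb1, named after its values were seen, being the other positive one, and 0 positive calls without any 1 of 6 mice. Angptl8, which takes part in the inhibition of lipoprotein lipase, was lower in KO than in WT livers and had an interaction of -1.47 (adjusted p = 0.0122), with an adjusted p of 0.0575 in the 15 vehicle arrays alone.

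Amino acid catabolism and urea cycle genes had 5 positive and 0 negative calls among 37 (13.5%, beside 8.51% of all genes), with a median of 0.28. Of them 19 were higher in KO than in WT livers and 1 was higher in LKO than in LWT livers. The mean level over the list was 7.04, 6.92 and 7.27 in KO livers and 6.61 to 6.72 in WT livers. In LKO livers it was 6.84 to 7.03 and in LWT livers 6.71 to 7.05. The KO mice thus overlapped the LKO and LWT mice, and the WT mice lay below all others but LWT replicate 4. Bckdhb, a subunit of the branched-chain keto acid dehydrogenase, had 6.97, 6.93 and 7.01 in KO livers, against 5.85, 6.02, 5.95 and 6.05 in WT livers, and 6.08, 5.97, 5.88 and 5.91 in LKO livers, against 6.14, 6.14, 6.04 and 5.99 in LWT livers. The KO mice lay clear of all others, with an interaction of 1.12 ± 0.10 (adjusted p = 2.69e-09). Aass, the first enzyme of lysine breakdown (1.30, adjusted p = 0.00289), and the aspartate aminotransferase Got1 (0.89, adjusted p = 0.0301) were called too, with KO replicate 1 within the range of the other groups for Aass. The count of 5 ran from 2 without KO replicate 3 to 12 without LWT replicate 4, with 3 without WT replicate 1 or LWT replicate 3, 10 without KO replicate 1 and 11 without KO replicate 2. Got1 lost its call without any 1 of 4 mice and with quantile normalization, the deposited values, no filter and the 15 vehicle arrays alone (adjusted p = 0.0775, 0.112, 0.0511 and 0.0735).

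The calls among clock and antioxidant genes were negative, and those among drug-metabolism genes went both ways. Of 18 clock genes 3 had negative and 0 positive calls (16.7%, beside 8.51% of all genes; median -0.53), and 4 were lower in KO than in WT livers. Nr1d2, the repressor REV-ERB beta, had 0.13, 1.00 and 0.54 in KO livers, against 2.45, 2.58, 2.59 and 2.16 in WT livers, and 2.37, 2.07, 2.19 and 1.88 in LKO livers, against 2.50, 2.31, 2.03 and 1.98 in LWT livers, with the KO mice below all others (interaction -1.81 ± 0.33, adjusted p = 0.000431). The transcription factor Hlf (-0.78, adjusted p = 0.00539) and the clock component Per1 (-0.62, adjusted p = 0.0185) were the others. The clock count was 5 without KO replicate 1, and Per1 lost its call without KO replicate 2 (-0.54, adjusted p = 0.0585) and with the mean of its detected probes (-0.35, adjusted p = 0.293). Of 14 NRF2 targets 3 had negative and 0 positive calls (21.4%; median -0.43), and 7 were lower in KO than in WT livers. These were both subunits of the enzyme that limits glutathione synthesis, Gclc (-1.13 ± 0.23, adjusted p = 0.00199) and Gclm (-0.72 ± 0.15, adjusted p = 0.00232), and the epoxide hydrolase Ephx1 (-0.54, adjusted p = 0.0395), which lost its call without any 1 of 10 mice and with no filter (adjusted p = 0.0675). Of 31 xenobiotic genes 2 had positive calls, Cyp2b10 and Cyp2b9 above, and 3 negative ones (16.1%; median -0.27), among them Cyp2c55 (-2.67 ± 0.48, adjusted p = 0.000427). The positive count was 4 without KO replicate 1 and the negative one 5 without KO replicate 2.

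Interferon response genes had the lowest list median, -0.76 over 29 genes, with 2 negative and 0 positive calls, a share (6.90%) below that of all genes (8.51%). Of these genes 6 were higher in LKO than in LWT livers and 1 was higher in KO than in WT livers. The mean level over the list was 0.88, 0.85 and 0.73 in KO livers, 0.68 to 1.13 in WT livers, 1.92, 1.64, 1.41 and 1.65 in LKO livers and 0.69 to 1.23 in LWT livers, so that the LKO mice lay above all others. Oasl1, an oligoadenylate synthetase-like protein, had 2.06, 1.94 and 2.25 in KO livers, against 2.79, 2.38, 2.31 and 1.72 in WT livers, and 3.44, 3.83, 2.93 and 3.68 in LKO livers, against 2.05, 1.70, 1.05 and 1.15 in LWT livers, with the LKO mice highest (interaction -2.20 ± 0.57, adjusted p = 0.0139). Xaf1, an interferon-induced gene that was lower in KO livers (KO minus WT -1.21), was the other call (-1.99 ± 0.53, adjusted p = 0.0165), and its direction turned with the mean of all its detected probes (2.39, adjusted p = 0.00391).

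The remaining lists had between 0 and 3 calls each, from 0% to 15.4% of a list, beside 8.51% of all genes. Hepatokine and endocrine genes had 1 positive call, the carrier Igfbp3 (1.49 ± 0.29, adjusted p = 0.00112), and 2 negative ones among 25 (12.0%; median -0.05), Serpina12 and the activin subunit gene Inhbc (-0.69, adjusted p = 0.0266), which lost its call without any 1 of 4 mice, with the 15 vehicle arrays alone, with slide as a fixed term and with replicate number as a block (adjusted p = 0.0902, 0.0606 and 0.0614). The negative count was 5 without KO replicate 1. Bile acid genes had 1 negative call among 24 (median -0.20), the canalicular exporter Abcc2 (-0.65 ± 0.12, adjusted p = 0.000702). Male-biased liver genes had 2 negative calls, Ugt2b38 (-0.77) and the major urinary protein Mup20 (-0.71), and 1 positive among 20 (median -0.29), and female-biased ones had 1 each way among 13 (15.4%; median 0.25), Cyp2b9 and Prom1 (-1.51). Mup20 lost its call with the mean of its detected probes (adjusted p = 0.0884), and Prom1 with normexp correction (adjusted p = 0.0686) and the deposited values (adjusted p = 0.0518). Antigen presentation (25 genes, median -0.20) and gluconeogenesis and glycolysis (23, median -0.23) had 1 negative call each, H2-T24 (-0.98) and Tkfc (-0.93), lost without any 1 of 5 and of 10 mice. Tkfc also lost its call with no filter, the 15 vehicle arrays alone and replicate number as a block (adjusted p = 0.0626, 0.0671 and 0.0656). ER stress (23 genes, median 0.14) and cell cycle genes (21, median 0.48) had 0 calls with all mice, and each had 1 positive call without KO replicate 1, ER stress also without KO replicate 3, LWT replicate 3 or LKO replicate 2 and cell cycle without LWT replicate 4.

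Among markers of other liver cells the endothelial ones had the largest share of calls. Of 13 endothelial markers 3 were called positive and 1 negative (30.8%, beside 8.51% of all genes; median 0.40). Stab2, a scavenger receptor of sinusoidal endothelium, had 5.12, 5.25 and 5.00 in KO livers and 4.12 to 4.56 in the other vehicle mice, with 1 WT value missing (0.66 ± 0.16, adjusted p = 0.00767), and the mean of its detected probes was not called (0.79, adjusted p = 0.0637). Stab1, of the same family, had 0.60 ± 0.11 (adjusted p = 0.000573), and the sinusoidal lectin Clec4g had -0.84 ± 0.22 (adjusted p = 0.0124). The positive count was 5 without KO replicate 1, and Clec4g lost its call without KO replicate 3 (-0.67, adjusted p = 0.0631). Red blood cell markers had 1 positive call among 5 (median 0.63), the beta-globin Hbb-b2 with 6.65, 6.24 and 5.47 in KO livers and 2.40 to 4.94 in the other 12 (2.65 ± 0.56, adjusted p = 0.00217). Lymphocyte and neutrophil markers (11 genes, median -0.49) and cholangiocyte markers (9, median -0.25) had 1 negative call each, Ms4a1 (-2.46) and Anxa4 (-0.44), lost without any 1 of 11 and of 7 mice. Ms4a1 was above background in 1 KO, 4 WT, 1 LKO and 2 LWT mice and was not called with normexp correction (-0.52, adjusted p = 0.18), quantile normalization, the deposited values, no filter or the 15 vehicle arrays alone, and Anxa4 was not called under the last 3 of these. Hepatocyte (15, median 0.06), stellate cell (13, median 0.20), adipocyte (2, median 0.38) and pancreatic acinar markers (3, median 0.13) had 0 calls, and the hepatocyte count was 3 without KO replicate 2 or LWT replicate 4.

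A smaller set of genes set the liver knockout or a control line apart. The 4 genes that follow other than Moxd1 and Nnt were named after their values were seen. Mfsd2a, a transporter of lysophospholipids known to rise in fasted liver, had 3.06 to 4.10 in KO livers, against 5.59 to 6.14 in WT livers, and 0.82 to 2.31 in LKO livers, against 5.59 to 6.46 in LWT livers. It fell in both knockouts and further in LKO livers, with no overlap between the KO and LKO mice (KO minus WT -2.16, LKO minus LWT -4.90, interaction 2.75 ± 0.47, adjusted p = 0.000181). Gpat3, an acyltransferase of triglyceride synthesis, had 2.97, 2.31 and 0.39 in KO livers, against 0.90, 1.95, 2.44 and 2.65 in WT livers, and -1.44, -0.41, -1.59 and -1.40 in LKO livers, against 2.14, 2.89, 2.71 and 2.94 in LWT livers. It was lower in the LKO mice than in every other mouse (interaction 3.78 ± 1.01, adjusted p = 0.0162). Rab30, a Golgi GTPase, fell in both knockouts as Mfsd2a did (KO minus WT -2.78, LKO minus LWT -4.46), and its interaction of 1.68 (adjusted p = 0.0429) was lost without any 1 of 9 mice, with no filter, the 15 vehicle arrays alone and the mean of its detected probes (adjusted p = 0.0694, 0.0772 and 0.0542).

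Moxd1, a monooxygenase-like gene, differed between the control mice. Its levels were 7.17, 5.17 and 5.13 in KO livers, against -3.75, -3.55, -5.77 and -4.13 in WT livers, and 5.80, 6.70, 5.05 and 5.17 in LKO livers, against 3.59, 3.47, 3.48 and -3.37 in LWT livers. All WT mice and LWT replicate 4 were low, while both knockouts and the other LWT mice were high. The interaction was 6.24 ± 1.60 (adjusted p = 0.0126), and with the 15 vehicle arrays fitted alone the adjusted p was 0.069, while without LWT replicate 4 the interaction was 7.96. Only 2 of the 4 WT mice were above background, and with normexp correction the interaction was 4.11. Wif1, a secreted WNT inhibitor, was above background in 3 KO, 0 WT, 4 LKO and 2 LWT mice and higher in both knockouts. It was at least 10.4-fold higher in KO than in WT livers, while its interaction was not called with normexp correction (adjusted p = 0.193) or the deposited values (adjusted p = 0.24). Nnt, the mitochondrial transhydrogenase, in which C57BL/6J mice are known to carry a deletion, had 4.85, 4.67 and 4.69 in KO livers, against 3.52, 3.89, 3.91 and 3.93 in WT livers, and 4.37, 4.83, 4.41 and 4.34 in LKO livers, against 4.99, 5.02, 4.88 and 3.84 in LWT livers. The WT mice and LWT replicate 4 were lower than the rest. The interaction of 1.12 (adjusted p = 0.0392) was lost without any 1 of 12 mice, with no filter, the 15 vehicle arrays alone and the mean of its detected probes (adjusted p = 0.0645, 0.0644 and 0.31).

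The genes that neighbour Ppara on chromosome 15 were also counted apart. Within 10 Mb of the Ppara probe 279 genes were tested and 34 of them had a called interaction (12.2%, beside 8.51% of all genes), 14 positive and 20 negative, with 3 at 4-fold or more by fitted size (Tomm22, Cdc42ep1 and the droplet gene Pnpla3 described above). The count of 34 was 60 without KO replicate 1. The WT mice lay above all other vehicle mice in 12 of these genes, 9 of them called, and below in 6, 5 of them called. The KO mice lay above all others in 8 and below in 12, the LKO mice in 3 and 1, and the LWT mice in 3 and 1. WT minus LWT was called for 15 of the 279. No test was made of these shares.

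Cdpf1, whose probe (chr15:85637436-85637495) lies next to Ppara, had -1.05, -0.56 and -0.74 in KO livers, against 1.52, 0.98, 0.77 and 0.87 in WT livers, and -1.19, -1.71, -1.19 and -0.86 in LKO livers, against -0.80, -0.74, -0.81 and -0.55 in LWT livers. The WT mice alone were high. The interaction was -1.31 ± 0.24 (adjusted p = 0.000408). Tomm22, a subunit of the mitochondrial import receptor (chr15:79503096-79503155), had 1.73, 2.23 and 2.06 in KO livers, against 4.12, 4.02, 4.03 and 3.92 in WT livers, and 3.25, 3.38, 3.44 and 2.11 in LKO livers, against 2.10, 2.22, 2.37 and 2.43 in LWT livers. The WT mice were highest, the LKO mice lay between, apart from LKO replicate 4, and the KO and LWT mice overlapped (-2.78 ± 0.39, adjusted p = 9.69e-06). Poldip3 was low in the WT mice alone, at 5.35, 5.04 and 5.38 in KO livers, 4.43, 4.26, 4.30 and 4.34 in WT livers and 5.00 to 5.15 in the liver line (0.88 ± 0.12, adjusted p = 9.47e-06). The proapoptotic gene Bik (-1.33) was high and the phospholipase Pla2g6 (1.15) low in the WT mice alone, while for Cdc42ep1 (-2.21) LKO replicate 3 lay among the WT mice. Csf2rb (1.25) and Csf2rb2 (1.33), which encode beta chains of cytokine receptors, were instead high in the KO mice alone, and their calls were lost with the mean of their detected probes (adjusted p = 0.0538 and 0.0775).

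**Figure D4:**
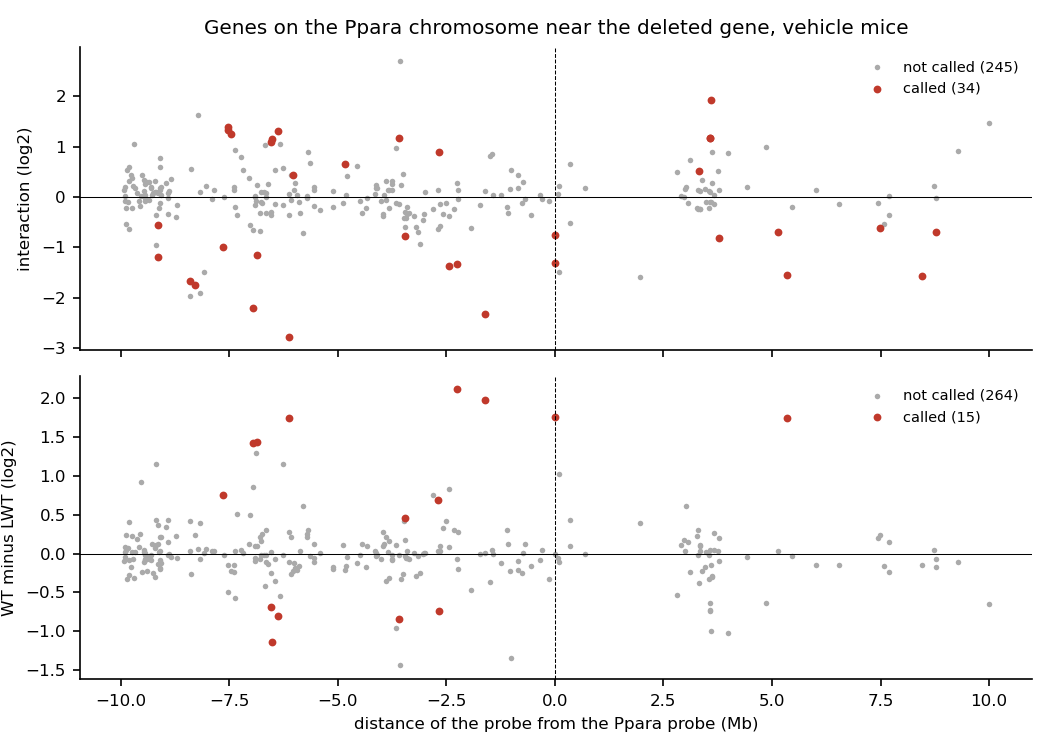
Genes within 10 Mb of the Ppara probe in vehicle mice, by distance from it in Mb (negative distances are at lower coordinates): the interaction above and WT minus LWT below, both in log2, with called genes in red. The 34 called interactions and the 15 called differences between the control lines lie on both sides of Ppara.

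Elsewhere the share of genes with a called interaction ran from 4.46% on the X chromosome (0 of 7 genes on the Y chromosome) to 11.5% on chromosome 9. Of 532 windows of 5 Mb that held a tested gene, 124 held a gene at 4-fold or more and 10 held at least 3, with 33 such genes in those 10. The window with most, chr4:130000001-135000000, held 5 among 81 tested genes. These were Extl1, Hmgn2, Ncmap, Snhg3 and Stmn1, named after their values were seen. The next by count, chr14:5000001-10000000, held 4 among 19 tested genes, a larger share, and Pdhb, described below, was among the 4.

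A gene is represented by its brightest probe, so the second probes were read beside it. Of the 1325 called genes 406 had another detected probe, 503 probes in all. The sign was the same for 424 of these and opposite for 79, and the call was shared for 160 and reversed for 9. Second probes gave fitted interactions of the same sign for Pttg1 (-4.55 beside -4.27), Dct (-9.23 beside -10.19), Camk2b (-3.96 beside -6.87), Trim12a (-4.40 beside -8.50) and Cidec (2.97 beside 3.09), where the sizes by the brightest probes of Dct, Camk2b and Trim12a rest wholly or in part on KO signals not above background. The second probes of Pttg1, Dct, Camk2b and Trim12a were above background in no KO mouse, so their fitted sizes are not measured sizes. The 2 Dct probes (chr14:118412029-118412088 and chr14:118412013-118412072) also overlap, so they are not separate measurements. Other genes differed by probe. Gas5 gave -4.34 with 1 probe and -0.61 and 0.49 with the others, Prim2 -4.22 and -0.22 (the second one stands under the stricter filter, with no call), Trim34a -4.14 and -0.49, Serpina3i 5.41 and 0.43, and, chosen after their values were seen, Tmem245 -2.32 and 0.14 and Tmc7 -2.81 and 0.41. For these genes the value printed above holds for the brightest probe only.

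The sequences of probes that disagree are shown here because they show which stretch each value belongs to. Adamts13, the protease that cleaves von Willebrand factor and named after its values were seen, had a probe at chr2:26852318-26852377 with an interaction of -2.38 and one farther along the gene at chr2:26862185-26862244 with a fitted interaction of 4.88, both called. The first had mean levels of -2.74 in KO, -0.23 in WT, -0.59 in LKO and -0.46 in LWT livers, and the second -0.84 in KO livers, above background in all 3, and -5.55 in WT, -6.05 in LKO and -5.88 in LWT livers, above background in none. Both lie on the plus strand of mm9 and are written 5′ to 3′.
Adamts13, first probe: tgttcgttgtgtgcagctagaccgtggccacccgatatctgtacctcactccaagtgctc
Adamts13, second probe: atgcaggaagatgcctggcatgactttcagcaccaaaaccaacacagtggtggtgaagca

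Rps13, a protein of the small ribosomal subunit, and its pseudogene Rps13-ps5, both named after their values were seen, have probes of 60 bases that differ at 3 of them, written in capitals below. Counted from the 5′ end, the Rps13 base stands first in A6T, T31C and C58A. Both were lower in the KO mice alone. The Rps13 probe (chr7:123475080-123475934, minus strand, spanning a gap in the genome) had 6.33, 6.50 and 6.31 in KO livers, against 7.79, 7.56, 7.63 and 7.63 in WT livers, and 7.52, 7.61, 7.64 and 7.48 in LKO livers, against 7.49, 7.55, 7.59 and 7.58 in LWT livers, and the Rps13-ps5 probe (chr11:61019238-61019297, minus strand) had 6.04, 6.00 and 5.99 in KO livers, against 7.14, 7.02, 6.98 and 7.05 in WT livers, and 6.92, 6.99, 7.02 and 6.96 in LKO livers, against 6.96, 6.99, 6.93 and 7.02 in LWT livers. The interactions were -1.28 ± 0.10 and -1.04 ± 0.08, and probes this alike can share transcripts, so the 2 values are not separate measurements of 2 genes. A second Rps13 probe (chr7:123475026-123475085) gave 0.03 ± 0.09, at 7.17 in KO, 7.16 in WT, 7.07 in LKO and 7.09 in LWT livers.
Rps13: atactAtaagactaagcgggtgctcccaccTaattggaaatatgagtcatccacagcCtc
Rps13-ps5: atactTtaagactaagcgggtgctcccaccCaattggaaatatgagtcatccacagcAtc

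Pdhb, the beta subunit of pyruvate dehydrogenase and also named after its values were seen, had 2 probes on the minus strand that overlap by the 15 bases tctacatttgctgtt (chr14:8998548-8998562). The probe at chr14:8998548-8998607 gave -2.12 ± 0.19, with 3.08, 3.87 and 3.26 in KO livers and 5.17 to 6.01 in the other 12. The probe at chr14:8998505-8998562, which reaches beyond the other at lower coordinates, gave -0.43 ± 0.17 (adjusted p = 0.13), and it too was lower in KO than in WT livers (KO minus WT -0.72, adjusted p = 8.54e-05). Whether a probe lies in a coding exon or an untranslated region is not given here, since no annotation of mm9 was used.

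The mice given fenofibrate form a second set of 19 in which the same interaction was computed from other arrays. It was called for 1930 genes there (12.4%; 6.07% of all genes positive). Of the 1325 vehicle calls 851 were called the same way on fenofibrate, which is 64.2% of the vehicle calls and 44.1% of the fenofibrate calls, and 0 were called the opposite way. The sign was the same for 1304 (98.4%), including 693 of the 699 negative and 611 of the 626 positive calls. The vehicle interaction minus the fenofibrate interaction was called for 0 genes by limma, with 662 (4.25%) at an unadjusted p below 0.05. Of the 174 genes at 4-fold or more 149 were called the same way on fenofibrate and 116 also reached 4-fold. Pttg1 had -4.24 on fenofibrate and -4.27 on vehicle, and Igsf23 5.15 and 4.34. Dct, Trim12a and Wdr72 were called the same way on fenofibrate, with sizes that rest on signals not above background in both sets. Cyp2b10 (2.39, adjusted p = 0.158), Cidec (1.34, adjusted p = 0.31), Sqle (0.49, adjusted p = 0.477), Oasl1 (-1.09, adjusted p = 0.173) and Ppara (-0.43, adjusted p = 0.176) were not called on fenofibrate, though the difference from the vehicle interaction was not called for them either. By list, 7 acute phase genes and 22 amino acid genes were called positive on fenofibrate, and 0 cholesterol synthesis genes.

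**Figure D5:**
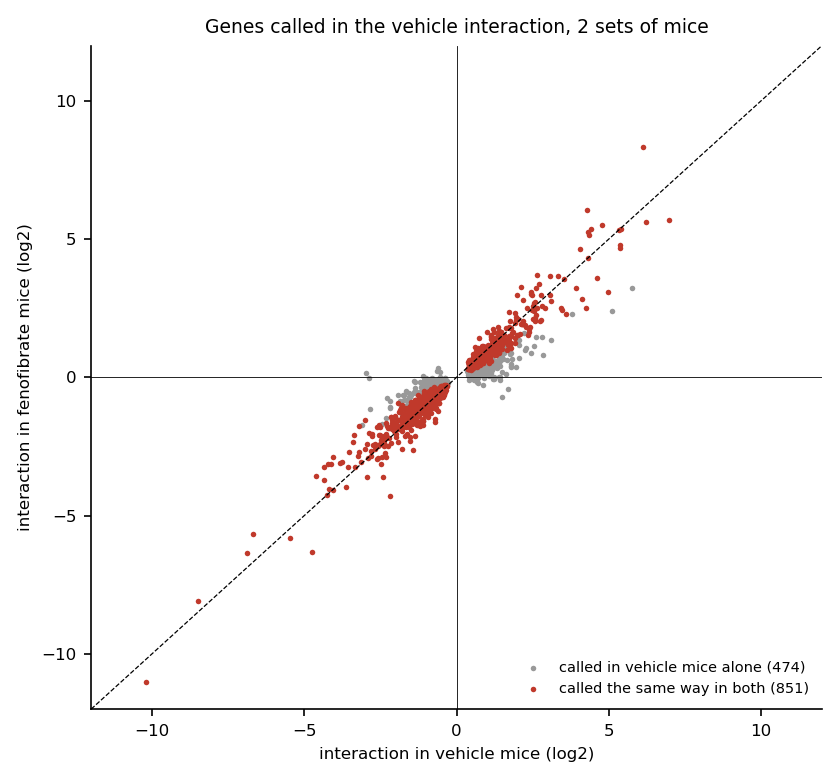
Interaction of the 1325 genes called in vehicle mice (horizontal axis, log2) against the same interaction in the fenofibrate mice (vertical axis, log2), with the 851 genes called the same way in both in red, the 474 others in grey and a dashed line at equal values. The points lie along the line in both directions, and no gene was called with opposite signs.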

How the data were processed

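Liver RNA of 34 mice was measured on single-colour Agilent arrays, 1 per mouse, and grouped by the genotype and treatment in the labels. The deposited scanner files hold the processed signal of each spot as a linear intensity, background-subtracted by Agilent Feature Extraction (version 10.10.1.1, per the submitters' processing notes and the file headers). A deposited table of log2 values, which the authors made with limma per those notes, served as an alternative, and its filter and centring are not given in the sources used here.

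From the scanner files, control spots were dropped, flagged outlier spots were set to missing (45 values on vehicle arrays), spots of 1 probe were averaged, and log2 of the processed signal minus the 75th percentile of the array was taken. Of 55681 probes 32011 were named through their accession, symbol or synonym in RefSeq tables or by the file. Kept were probes that exceeded background clearly in all mice of 1 or more of the 8 groups, which left 31053 probes, 20987 of them named. The brightest probe stood for a gene, giving 15567 genes. No spot of a tested gene was saturated. The small number of arrays limits the precision, and sizes on dim probes also depend on the background method.

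A linear model with 8 group means and no covariate was fitted to all 34 arrays with limma 3.58.1 in R 4.3.3 (26 residual degrees of freedom), with two-sided moderated tests and Benjamini-Hochberg adjustment over all genes. "At least" folds set the measured mean of the brighter group against the lowest detected signal of each array in the dimmer group, or the probe's own signal where that was higher. The fit was tested on simulated data. Alternatives were normexp background correction (offset 50), quantile normalization, the deposited table, no filter and a stricter filter on dim probes, the 15 vehicle arrays alone, slide as a fixed and as a random block, replicate number as a block, the mean of all detected probes, and leaving out each vehicle mouse.

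Genes were named by rule: the 12 largest positive and 12 largest negative called interactions among genes with a proper symbol, Ppara, 16 genes known for PPARA, up to 3 called genes of each of 24 pathway lists and 9 cell marker lists, and called genes within 10 Mb of Ppara. Of these last, 8 are described as neighbours of Ppara, and Pnpla3 with the lipid droplet genes. Some genes that the rule names are not reported here. Genes said to be named after their values were seen fall outside it. All members and lists were chosen with earlier results of these data known. Same-numbered mice deviated together in KO and WT (r of 0.123 to 0.404), LKO and LWT (0.116 to 0.285) and WT and LWT (0.106 to 0.236). In KO and LKO r was 0.142, -0.005 and -0.057. It ran from 0.011 to 0.205 in KO and LWT and from -0.001 to 0.361 in WT and LKO. Some of these pairs shared a slide, and the numbers were not taken to pair the interaction. Coordinates are mm9, per the file headers.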

Additional observations from a re-analysis of the deposited data

Results flagged for a closer look

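The effect of the knockout differed between the whole-body and the liver line for 1325 genes by the test of the interaction itself, which is the result described above. Among probes with no gene name, which the gene counts do not use, 420 of 10066 had a called interaction when tested with all 31053 detected probes (4.17%, beside 6.33% of all detected probes), 193 positive and 227 negative, and 110 of them were at least 4-fold.

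In 20 of 332 groups of 4 mice examined, 1 mouse lay far from the other 3 by Dixon's criterion, and chance gives about 1 in 20 groups, or 16.6 here. In the WT group replicate 4 was high for Lcn2 at 2.07 (others 1.18 to 1.32) and for the acute phase list mean at 5.00 (others 4.70 to 4.72), and low for Cd36 at -0.30. WT replicate 2 was low for Fabp1 at 9.90, and WT replicate 1 was low for Nnt at 3.52. In the LKO group replicate 2 was high for Fgf21 at -3.14 (others -6.75 to -6.29), for Gpat3 at -0.41, for Inhbc at 3.34 and for Nnt at 4.83. LKO replicate 3 was high for Serpina3i at 0.66 (others -1.62 to -1.29). LKO replicate 4 was low for Tomm22 at 2.11 (others 3.25 to 3.44) and for Sugct at 1.82, and LKO replicate 1 was low for Got1 at 8.24 and for Srebf2 at 0.18. In the LWT group replicate 4 was low for Moxd1 at -3.37 (others 3.47 to 3.59) and for Nnt at 3.84 (others 4.88 to 5.02). LWT replicate 1 was high for Cyp2b9 at -2.72 and for the cholesterol synthesis list mean at 3.70, and low for Tmem25 at 4.11 and Srebf2 at 0.27.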

How the results depend on the processing

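The interaction was called for 1193 genes with normexp correction, 1473 with quantile normalization, 1340 with the deposited log2 values, 994 with no filter, 1256 with the stricter filter, 894 with the 15 vehicle arrays alone and 1318 with the mean of all detected probes, against 1325. Leaving out 1 mouse gave 1001 to 2015, and 3804 to 4997 for KO minus WT, 691 to 1128 for LKO minus LWT and 1597 to 2674 for KO minus LKO. WT minus LWT moved most, from 144 to 84 with the deposited values, 28 with the vehicle arrays alone, 224 with slide as a random block and 60 to 225 on leaving out 1 mouse. The interaction count at 2-fold or more was 367 with normexp against 582, and at 4-fold or more 73 with normexp, 78 with the deposited values and 102 with the stricter filter against 174. Genes lower in both knockouts were chosen anew under each setting. Of these, 18 had a called interaction with the deposited values, 23 with no filter and 17 with the vehicle arrays alone. The main fit gave 42 of 463. With replicate number as a block the interaction was called for 1481 genes, and the numbers were not taken to pair it. The block gave 4949, 1115 and 201 calls for KO minus WT, LKO minus LWT and WT minus LWT, none moved by over 1.5 times. Direction turned for Xaf1 (2.39) and Adamts13 (1.25) with the mean of probes, which joins probes of opposite sign. Of the 93 called genes checked 1 by 1, 61 stayed called under all 10 settings other than leaving out a mouse. Another 30 lost their call under at least 1 of these settings, and 2 turned direction. On leaving out a mouse 23 lost their call at least once and 70 kept it throughout. Srd5a2, Tagln3, Lhx3, Zfp296, Ccdc171, Scarb1 and the genes listed for the chromosome 4 window were not among the 93. With 3 or 4 mice a group, p-values measure the spread between these mice only.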
